A study of Homo sapiens with 9 samples.

Results

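The miR-193 and miR-365 genes form a pair of paralogous clusters, miR-193b with miR-365a and miR-193a with miR-365b. The members described here are 6 mature miRNAs of these clusters, chosen by name among the 2652 miRNA names of the count table, namely hsa-miR-193a-5p, hsa-miR-193a-3p, hsa-miR-193b-5p, hsa-miR-193b-3p, hsa-miR-365a-3p and hsa-miR-365b-3p (written without the prefix for human from here on). The study looked for miRNAs that bind the PD-L1 3'UTR by miTRAP, in which a bait RNA tagged with MS2 loops is fixed to a resin and lysate is passed over it, and then sequenced the small RNA that came off. All 9 libraries came from wild-type, untreated ES-2 cells, a single established line derived from ovarian cancer. They comprised 3 replicates of the lysate (input), 3 of the MS2 control, whose bait had the loops and no 3'UTR, and 3 in which the loops carried the PD-L1 3'UTR, called the PD-L1 bait here. By the methods the 2 baits were not used in equal amount, so effects of bait sequence and of bait amount cannot be told apart. Nothing in the labels says that replicates were separate cultures.

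A miRNA hairpin is cut into a duplex, from which one strand, the guide, is usually retained in an Argonaute protein while the other, the passenger, is usually degraded. The guide finds mRNAs mainly through its seed, bases 2 to 8, which pair with sites in 3'UTRs. The arms are named 5p and 3p after their side of the hairpin. The 3p arms of miR-193 and miR-365 are the ones mostly studied as guides. miR-193a-3p and miR-193b-3p are known as repressors of growth-promoting transcripts in several tumours, and the cluster of miR-193b and miR-365a is known from work on brown fat cells.

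The mature sequences are shown because the members differed by arm, and the arms by base composition. They are RefSeq sequences on GRCh38.p14, with the seed in capitals, and all 6 members were found there. The 3p arms carried 2 seeds:
miR-193a-3p: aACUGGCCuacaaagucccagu
miR-193b-3p: aACUGGCCcucaaagucccgcu
miR-365a-3p: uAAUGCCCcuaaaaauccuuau
miR-365b-3p: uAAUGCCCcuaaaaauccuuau
The 5p arms carried other seeds, which differed between miR-193a-5p and miR-193b-5p and were the same for miR-365a-5p and miR-365b-5p. The 5p arms of the miR-365 hairpins are not members and are shown as the partners of the miR-365 3p arm:
miR-193a-5p: uGGGUCUUugcgggcgagauga
miR-193b-5p: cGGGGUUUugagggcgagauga
miR-365a-5p: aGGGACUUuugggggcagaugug
miR-365b-5p: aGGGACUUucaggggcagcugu

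miR-193a-3p and miR-193b-3p differed at 4 of 22 bases (U9C, A10U, A20G and G21C, from miR-193a-3p to miR-193b-3p, counted from the 5′ end), none of them in the seed. miR-193a-5p and miR-193b-5p also differed at 4 bases (U1C, U5G, C6U and C11A), of which 2 lay in the seed. miR-365a-3p and miR-365b-3p were identical at all 22 bases, so reads of this sequence could not be assigned to a hairpin. No other name of the table with a sequence in RefSeq shared bases 2 to 8 with any of these arms. RefSeq held a sequence for 2363 of the 2652 names.

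All 4 hairpins lie on the forward strand. On chromosome 16, the hairpin of miR-193b (chr16:14303967-14304049) and that of miR-365a (chr16:14309285-14309371) lie 5235 bases apart, both within the long noncoding RNA gene MIR193BHG. On chromosome 17, the hairpins of miR-193a (chr17:31559996-31560083) and miR-365b (chr17:31575411-31575521) lie 15327 bases apart. The latter lies within the long noncoding RNA gene MIR365BHG, and no other gene of the RefSeq table spanned the whole hairpin of miR-193a.

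The libraries held between 672824 and 5983577 miRNA counts, and PD-L1 bait replicate 2 was the shallowest. The 6 members were rare. Together they took from 0.00833% to 0.00863% of the input counts, from 0.0166% to 0.0209% of the MS2 control counts and from 0.0055% to 0.00895% of the PD-L1 bait counts, or between 37 and 515 reads in a library. A floor of 3 counts was worth from 0.676 to 4.02 CPM (the count scaled by library size and by the trimmed mean of M values, TMM), a limit set by counting error only. Of 5 miRNAs that mark epithelial cells, 4 had reads in the input, summing to between 41.5 and 55.5 CPM, and miR-429 was at 0. Most of this sum was miR-200c-3p, with 36.5 to 48.9 CPM. The 6 markers of blood cells summed to between 191.2 and 266.7 CPM in the input. Nearly all of this was miR-142-3p (76.9 to 113.6 CPM) and miR-142-5p (111.6 to 150.5 CPM). The rest had 2.48 CPM or less each, with miR-144-3p at 0. PD-L1 bait replicate 1 stood apart. Its markers of muscle (miR-1-3p and miR-133a-3p) summed to 1502 CPM, against 100.6 and 28.3 CPM in replicates 2 and 3, its liver marker miR-122-5p had 160.7 CPM, against 0 and 0.726 CPM, and its blood markers summed to 1424 CPM, against 586.3 and 541.3 CPM. Its epithelial markers summed to 236.5 CPM, against 63.1 and 37.0 CPM. The MS2 control libraries also held more of the muscle, liver and blood markers than the input. Muscle markers summed to between 41.2 and 124.8 CPM, against 1.58 to 3.71 CPM in the input. In each of these groups only 1 of the 2 muscle markers had reads. miR-122-5p had between 40.1 and 50.4 CPM, against 1.58 to 3.42 CPM, and blood markers summed to between 310.2 and 359.5 CPM. The part of these markers in the results was not tested.

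In the input, the reads of the miR-365 3p sequence led. The sum of miR-365a-3p and miR-365b-3p had 58.4, 47.2 and 46.6 CPM in replicates 1, 2 and 3, above every other member in each replicate. miR-193b-3p followed with 24.7, 19.9 and 25.7 CPM, then miR-193a-5p with 21.3, 18.2 and 20.1 CPM and miR-193b-5p with 10.3, 20.9 and 22.1 CPM. These 3 overlapped, so their order is not given by the data. miR-193a-3p was lowest, with 1, 1 and 7 reads. The arms of miR-193b thus overlapped in the lysate, whereas nearly all reads of the miR-193a hairpin were of its 5p arm. Mature members are all 22 bases long, so they do not differ in length. Whether each sequence entered the libraries with equal efficiency was not measured.

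After trapping with the MS2 control the order was different. miR-193a-5p led with 109.3, 82.9 and 87.8 CPM, above miR-193b-5p with 42.0, 62.3 and 35.6 CPM. The miR-365 3p sum fell below both, with 16.8, 24.2 and 18.9 CPM, and miR-193b-3p was lower still with 0, 4.76 and 3.03 CPM. None of these neighbours overlapped. With the PD-L1 bait, the miR-365 3p sum led again, with 33.3, 30.9 and 53.0 CPM. miR-193b-3p with 19.1, 2.68 and 7.98 CPM, miR-193a-5p with 7.79, 8.05 and 8.71 CPM and miR-193b-5p with 5.66, 6.71 and 9.43 CPM overlapped below it. miR-193a-3p had 0, 1 and 0 reads in the MS2 control and 0, 1 and 1 in the PD-L1 bait group, under the floor in each, and did not pass the filter on low counts. It was therefore not tested, and a change of it was not detectable at this depth.

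**Figure D1:**
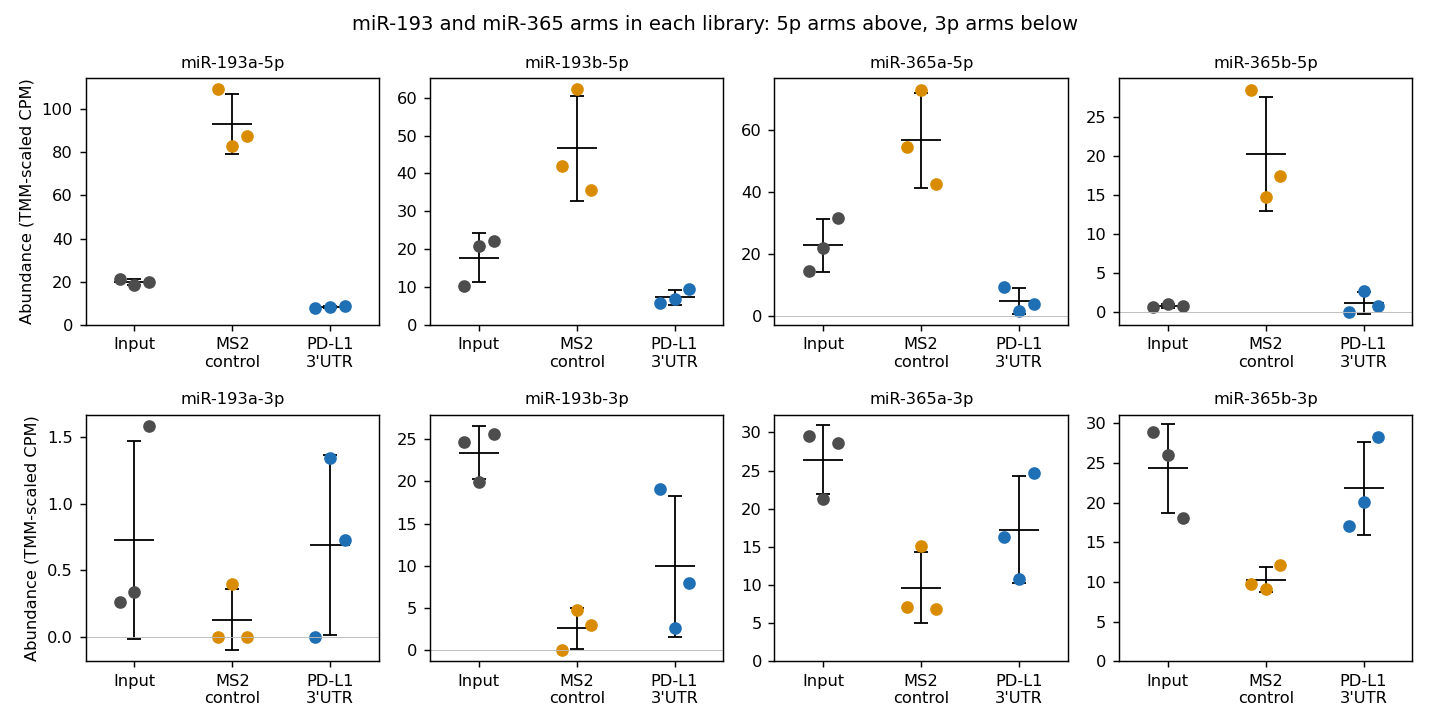
Abundance in TMM-scaled CPM (linear vertical axes, different for each panel) of the 5p arms (top row) and 3p arms (bottom row) of the 4 hairpins in each library, with points for replicates 1 to 3 from left to right and bars for the mean ± SD (n = 3). The 5p arms are highest in the MS2 control, where miR-193a-5p reaches 109.3 CPM, and miR-193b-3p is lowest there, at 0 to 4.76 CPM.

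The MS2 control set against the input shows what the loops and the resin retain by themselves, at the amount of control bait used. Counts are scaled within a library, so rises and falls here and below are relative to other miRNAs and not amounts. All 5 tested members passed the threshold (edgeR's quasi-likelihood test, Benjamini-Hochberg adjusted p under 0.05), the 2 5p arms as higher and the 3 3p names as lower. Among all 408 miRNAs tested, 32.8% were higher and 37.0% lower in this comparison, 69.9% together, so calls as such were common. The libraries of the groups did not overlap for the 5 members, nor for 75.5% of all miRNAs tested. The median log2 fold change of the 408 was 0.02.

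miR-193a-5p rose from 19.9 CPM ± 1.56 (SD, n = 3) in the input to 93.3 CPM ± 14.0 in the MS2 control, a log2 fold change of 2.23 ± 0.22 (SE, edgeR adjusted p of 1.12e-05). miR-193b-5p, the 5p arm of the paralog, rose by less, from 17.7 CPM ± 6.51 to 46.6 CPM ± 13.9, a log2 fold change of 1.40 ± 0.36 (edgeR adjusted p of 0.00517). For both, each MS2 control library lay above each input library. The difference between them, read as the log2 ratio of miR-193b-5p to miR-193a-5p within a library, was -1.03 ± 0.53 (SD) in the MS2 control and -0.24 ± 0.70 in the input, and the groups overlapped (exact permutation test, two-sided, p of 0.2, adjusted 0.33).

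miR-193b-3p went the other way. Its reads numbered 94, 59 and 114 in the input and 0, 12 and 4 in the MS2 control, a fall from 23.4 CPM ± 3.10 to 2.60 CPM ± 2.41 (SD, n = 3). The log2 fold change was -3.05 ± 0.75 (SE, edgeR adjusted p of 0.0042). The miR-365 3p sum fell from 50.7 CPM ± 6.64 to 20.0 CPM ± 3.80, a log2 fold change of -1.33 ± 0.29 (edgeR adjusted p of 0.00178), again with no overlap of the groups. Scaling by library totals instead, which raised the median of all miRNAs by 0.63, the sum had -0.71 (edgeR adjusted p of 0.0374) and miR-193b-3p -2.45 (edgeR adjusted p of 0.0132). Taken apart, miR-365a-3p and miR-365b-3p had -1.40 ± 0.40 and -1.24 ± 0.32 and lost their calls under that scaling, at -0.79 and -0.62.

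The partners of the miR-365 3p arm behaved like the 5p members. miR-365a-5p had 14.5, 21.9 and 31.5 CPM in the input and 54.3, 73.0 and 42.4 CPM in the MS2 control, a log2 fold change of 1.32 ± 0.43 (SE, edgeR adjusted p of 0.0181). This call was lost without input replicate 1 (0.98), without input replicate 2 (1.33) or without MS2 control replicate 2 (1.10). miR-365b-5p had 2, 3 and 3 reads in the input and 44, 37 and 23 in the MS2 control, at least 24.4-fold higher by CPM over the floor of 3 counts. Both listed relatives passed the test as higher. miR-365b-5p passed the filter on low counts only through its MS2 control reads, so its call is not separate support.

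A ratio of the arms within each library does not depend on the scaling of libraries. It shows how far the arms moved apart, and not whether either of them rose or fell. Where an arm has few reads, the ratio still depends on depth through the 0.5 added to each count. For miR-193b, the log2 ratio of 5p to 3p counts (with 0.5 added) was -1.26, 0.07 and -0.22 in the input and 7.03, 3.66 and 3.40 in the MS2 control. The mean difference was 5.16, with no overlap between the groups (exact permutation test, two-sided, p of 0.1, adjusted 0.25). The 7.03 comes from MS2 control replicate 1, which had 0 reads of the 3p arm and so rests on the added 0.5, and the difference was 3.996 without that library. For miR-193a it was 5.76, 5.18 and 3.58 in the input and 8.41, 7.13 and 7.86 in the MS2 control, a mean difference of 2.96 (exact permutation p of 0.1, adjusted 0.25), but the 3p arm had 1 read in all 3 MS2 control libraries together, so its size rests on the added 0.5. For miR-365, the ratio of miR-365a-5p to the 3p sum of both hairpins was -2.003, -1.10 and -0.56 in the input and 1.67, 1.59 and 1.15 in the MS2 control. That pair was added after its values were seen and was not tested. With 3 libraries against 3, an exact test cannot go below 0.10, and 6 of the 15 ratio tests reached that value.

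**Figure D2:**
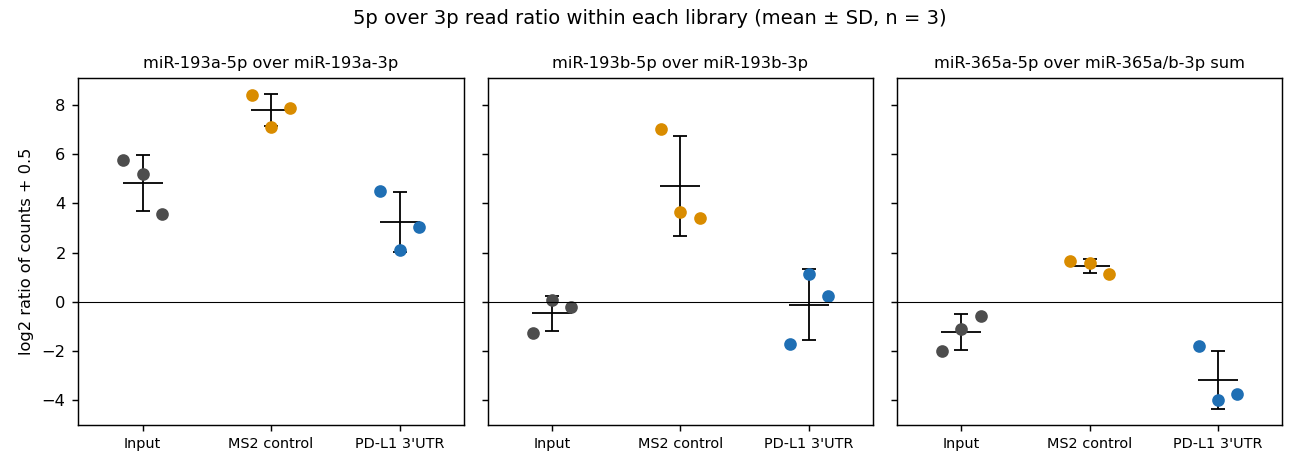
Log2 ratio of 5p to 3p read counts, with 0.5 added to each count, within each library for miR-193a, miR-193b and miR-365 (miR-365a-5p over the sum of miR-365a-3p and miR-365b-3p), with points for replicates and bars for the mean ± SD (n = 3). The MS2 control libraries lie above all others in each panel, from 3.40 to 7.03 for miR-193b.

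Both arms passed the filter for 101 miRNA names. Between the MS2 control and the input, 16 of these (15.8%) had a 5p arm that passed as higher and a 3p arm that passed as lower, and 8 (7.92%) had the reverse. The names miR-193b, miR-365a and miR-365b were all among the 16, and the latter pair share 1 3p sequence. miR-365b was there only because its 5p arm passed the filter through its MS2 control reads. Over all tested names ending in 5p the median log2 fold change was 0.01 (n = 178), and over those ending in 3p it was -0.22 (n = 174). With the PD-L1 bait over the MS2 control, 5 of the 101 names (4.95%) had a 5p arm that passed as lower and a 3p arm that passed as higher, and 9 (8.91%) had the reverse.

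The PD-L1 bait was next set against the MS2 control, which had the loops and resin without the 3'UTR. Since the bait amounts differed, this comparison does not fully take account of what the loops and resin hold by themselves. Here 3 of the 5 tested members passed the threshold, 2 as lower and 1 as higher. Over all miRNAs tested, 28.7% were lower and 31.4% higher, 60.0% together, so the number of calls among the members was at the background. The groups did not overlap for 3 of the 5 members and for 65.7% of all miRNAs. This comparison shares the MS2 control libraries with the one above, so the values of each are given side by side and not as independent of one another.

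miR-193a-5p was the member with the clearest fall. It had 169, 209 and 116 reads in the MS2 control and 11, 6 and 12 with the PD-L1 bait, or 93.3 CPM ± 14.0 against 8.18 CPM ± 0.47 (SD, n = 3). The log2 fold change was -3.50 ± 0.26 (SE, edgeR adjusted p of 7.84e-07), 11.3-fold lower, and it ranged from -3.63 to -3.38 under all alternatives. miR-193b-5p fell from 46.6 CPM ± 13.9 to 7.27 CPM ± 1.95, a log2 fold change of -2.67 ± 0.42 (edgeR adjusted p of 0.00025), or 6.37-fold. Each PD-L1 bait library lay below each MS2 control library for both. Their ratio to each other was -0.19 ± 0.28 (SD) with the PD-L1 bait, which overlapped the MS2 control (exact permutation test, two-sided, p of 0.2, adjusted 0.33).

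The other 5p arms fell too. miR-365a-5p had 9.20, 1.34 and 3.63 CPM with the PD-L1 bait, a log2 fold change of -3.45 ± 0.53 (SE, edgeR adjusted p of 0.000216), or -4.31 without PD-L1 bait replicate 1. miR-365b-5p had at most 2 reads in each PD-L1 bait library and was at least 7.27-fold lower. miR-193a-5p, miR-193b-5p and miR-365a-5p thus passed as lower than the MS2 control. miR-365b-5p passed as well, but it entered the test only through its MS2 control reads, so its call is not separate support.

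The miR-365 3p sequence was higher with the PD-L1 bait than in the MS2 control, at a call that single libraries could remove. The sum had 26, 61 and 25 reads in the MS2 control and 47, 23 and 73 with the PD-L1 bait, which was 20.0 CPM ± 3.80 against 39.0 CPM ± 12.1 (SD, n = 3). The libraries did not overlap, and the log2 fold change was 0.98 ± 0.29 (SE, 95% interval from 0.33 to 1.62, edgeR adjusted p of 0.0139), or 1.97-fold. The call was lost without MS2 control replicate 3 (0.90, edgeR adjusted p of 0.0607), without PD-L1 bait replicate 3 (0.67, adjusted p of 0.0784) and with no filter on low counts (0.96, adjusted p of 0.0706). Taken apart, miR-365b-3p passed at 1.09 ± 0.34 (edgeR adjusted p of 0.0164) and miR-365a-3p did not, at 0.82 ± 0.42 (adjusted p of 0.121). The former call was lost without input replicate 2, without MS2 control replicate 1 or 2, without PD-L1 bait replicate 3 and with no filter on low counts (1.10, edgeR adjusted p of 0.0998). Without MS2 control replicate 2, miR-365a-3p passed instead (1.32, edgeR adjusted p of 0.03). Since both names hold 1 sequence, this split does not separate the hairpins. miR-365a-3p took 425 of the 824 reads of the sequence in all libraries, 51.6% (95% Wilson interval from 48.2% to 55.0%, counting error only). Its share was 53.1% in the input, 51.8% in the MS2 control and 45.5% with the PD-L1 bait.

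miR-193b-3p had a larger fitted difference with a larger error. Its 27, 2 and 11 reads with the PD-L1 bait gave 9.93 CPM ± 8.39 (SD, n = 3). The MS2 control had 2.60 CPM ± 2.41, and the groups overlapped. The log2 fold change was 1.89 ± 0.80 (SE, 95% interval from 0.12 to 3.67, unadjusted p of 0.0389) and missed the threshold (edgeR adjusted p of 0.0618, from 0.0128 to 0.302 across alternatives). It was 1.07 without PD-L1 bait replicate 1 and 2.79 without MS2 control replicate 2. The former library had the most reads of miR-193b-3p in its group and the high markers of muscle, liver, blood and epithelium. The ratio of miR-193b-3p to the miR-365 3p sum within a library was -2.23 ± 1.28 (SD) with the PD-L1 bait and -3.51 ± 1.92 in the MS2 control, which overlapped (exact permutation test, two-sided, p of 0.6, adjusted 0.69).

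The ratios of 5p to 3p within a library were lower with the PD-L1 bait than in the MS2 control, with no overlap of the libraries. For miR-193b, the log2 ratio of 5p to 3p counts was -1.69, 1.14 and 0.23 with the PD-L1 bait, below each MS2 control library, with a mean difference of -4.805 (exact permutation test, two-sided, p of 0.1, adjusted 0.25). It was -3.64 without MS2 control replicate 1 and -4.01 without PD-L1 bait replicate 1. For miR-193a it was 4.52, 2.12 and 3.06, a mean difference of -4.57 from the MS2 control (exact permutation p of 0.1, adjusted 0.25), again over a 3p arm with at most 1 read in a library, and of -5.21 without PD-L1 bait replicate 1. For miR-365a-5p over the 3p sum it was -1.82, -3.97 and -3.74, a mean difference of -4.64 (-5.32 without PD-L1 bait replicate 1) that was not tested. The 3p sides of the paralogs were compared as the ratio of miR-193b-3p to miR-193a-3p, which was 5.07 ± 1.04 (SD, n = 3) in the input, 2.08 ± 1.80 in the MS2 control and 3.15 ± 2.53 with the PD-L1 bait. The input libraries lay above the MS2 control libraries, and the PD-L1 bait overlapped both. However, miR-193a-3p had 1, 1 and 7 reads in the input and at most 1 read in each library of the trapped groups. In MS2 control replicate 1 both 3p arms had 0 reads. The size of this ratio and the order of the groups therefore depend on depth and on the constant added to each count.

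**Figure D3:**
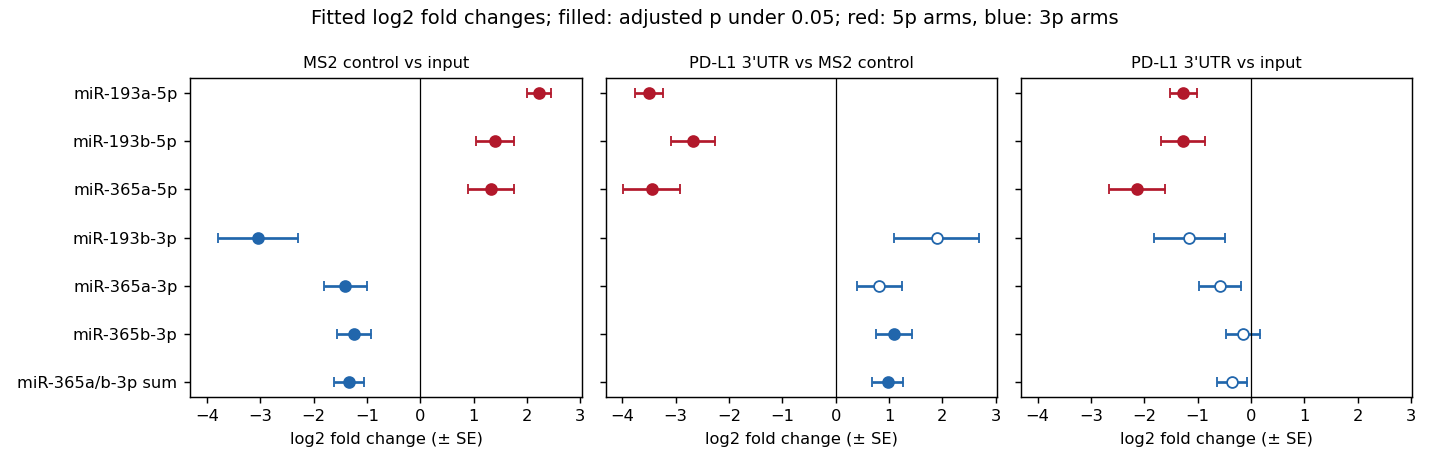
Fitted log2 fold change ± SE (horizontal axis) of the tested members, of miR-365a-5p and of the miR-365a/b-3p sum in the 3 comparisons, with filled points for an adjusted p under 0.05, 5p arms in red and 3p arms in blue. Against the MS2 control the 5p arms lie between -3.50 and -2.67 and the 3p arms between 0.82 and 1.89, and with the PD-L1 bait against the input no 3p arm passes the threshold.

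Against the input, 2 of the 5 tested members passed the threshold, both as lower, and 0 passed as higher, by edgeR as by DESeq2 and the edgeR exact test and at an unadjusted p under 0.05. Among all miRNAs tested, 32.4% were lower and 34.1% higher, 66.4% together. The groups did not overlap for 3 of the 5 members and for 74.8% of all miRNAs. miR-193a-5p had a log2 fold change of -1.27 ± 0.25 (SE, edgeR adjusted p of 0.00123), from 19.9 to 8.18 CPM, with no overlap of the groups. miR-193b-5p had -1.27 ± 0.41 (edgeR adjusted p of 0.0195), from 17.7 to 7.27 CPM, also without overlap, and its call was lost without PD-L1 bait replicate 1 (-1.15, adjusted p of 0.0608). miR-365a-5p had -2.13 ± 0.52 (edgeR adjusted p of 0.00444), or -3.08 without PD-L1 bait replicate 1. Library totals raised the median of all miRNAs by 0.57 in this comparison, and under them miR-193a-5p stood at -0.70 (edgeR adjusted p of 0.0348) and miR-193b-5p at -0.705 (adjusted p of 0.152).

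The 3p arms were not enriched over the lysate. The miR-365 3p sum had 39.0 CPM ± 12.1 with the PD-L1 bait and 50.7 CPM ± 6.64 (SD, n = 3) in the input, and the groups overlapped. Its log2 fold change was -0.36 ± 0.28 (SE, 95% interval from -0.98 to 0.26, edgeR adjusted p of 0.273), and it changed sign to 0.20 with library totals. Without PD-L1 bait replicate 3 it was -0.75 and passed as lower (edgeR adjusted p of 0.0466). miR-193b-3p stood at -1.15 ± 0.67 (95% interval from -2.64 to 0.33, edgeR adjusted p of 0.15), and without PD-L1 bait replicate 1 at -2.07 (adjusted p of 0.0256). The log2 ratio of miR-193b-5p to miR-193b-3p with the PD-L1 bait overlapped that of the input, and their mean difference of 0.36 had an exact permutation p of 0.7 (two-sided, adjusted 0.75). It was 1.15 without PD-L1 bait replicate 1. For miR-193a the mean difference from the input was -1.61 (exact permutation p of 0.2, adjusted 0.33), or -2.25 without that library.

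The arms also differed in a property that the choice of members did not use, their share of G. G made up 45.5% of miR-193a-5p, 50.0% of miR-193b-5p, 47.8% of miR-365a-5p and 40.9% of miR-365b-5p. It made up 18.2% of miR-193a-3p and of miR-193b-3p and 4.5% of the miR-365 3p sequence, against a median of 27.3% over the 371 of 408 tested miRNAs with a RefSeq sequence. Among those 371, the 49 miRNAs with at least 40% G had a median log2 fold change of 1.73 in the MS2 control over the input and of -1.67 in the PD-L1 bait over the MS2 control. Of these 49, 36 passed as higher and 5 as lower in the former comparison, and 3 and 32 in the latter. Against the input, the PD-L1 bait gave them a median of -0.18. The 49 include the 5p arms named above, of which miR-365b-5p entered the test only through its MS2 control reads. The 95 miRNAs with under 20% G had medians of -0.26 and 0.35 in the first pair of comparisons. The medians did not move steadily with G, being -0.70 and 0.53 for the 131 miRNAs with 20% to under 30% G and 0.20 and -0.45 for the 96 with 30% to under 40% G. Across miRNAs, the share of G correlated with the log2 fold change of the MS2 control over the input with Pearson's r of 0.30 and with that of the PD-L1 bait over the MS2 control with r of -0.34 (n = 371 each). In the same order, r was -0.21 and 0.02 for C, -0.10 and 0.24 for A, and 0.01 and 0.12 for U. The share of G was examined after the members' values were seen, the comparisons share the MS2 control libraries, and miRNAs of 1 library are not independent replicates, so these values describe the libraries only.

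**Figure D4:**
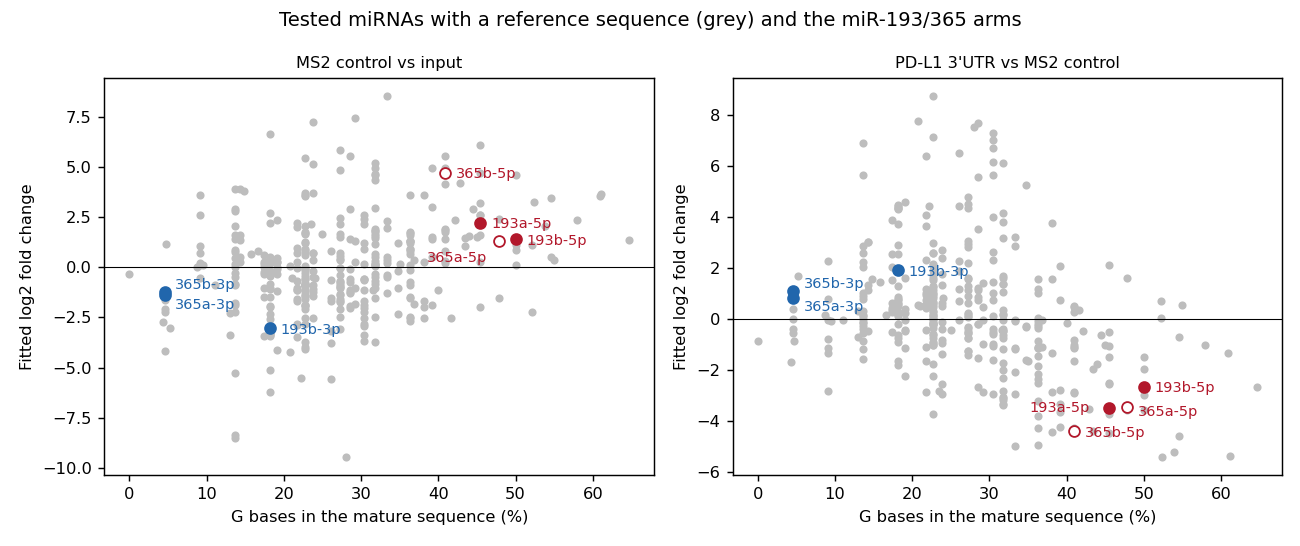
Share of G bases in the mature sequence (horizontal axis, percent) against the fitted log2 fold change of the MS2 control over the input (left) and of the PD-L1 bait over the MS2 control (right) for 371 tested miRNAs, with the 5p arms in red, the 3p arms in blue, members filled and the miR-365 5p arms open. The G-rich 5p arms, from 40.9% to 50.0% G, lie above 0 on the left and below 0 on the right. The arm with 40.9% G, miR-365b-5p, entered the test only through its MS2 control reads, so its place is not separate support.

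The members' patterns over the 9 libraries were set beside those of all other tested miRNAs by Pearson's r of log2 CPM, as a description. The closest to miR-193a-5p were let-7e-5p (r of 0.99), with 1060, 3849 and 524.1 CPM in the input, the MS2 control and the PD-L1 bait group, then miR-4488 and miR-196a-5p (r of 0.98 each). Those closest to miR-193b-5p were miR-92a-1-5p (r of 0.96), miR-4488 (0.95) and miR-1908-5p (0.94). Those closest to miR-193b-3p were miR-23b-3p (r of 0.93), with 380.6, 35.3 and 206.1 CPM, then miR-30b-5p (0.91) and miR-181a-3p (0.90). For the miR-365 3p sum they were miR-500b-5p (0.94), miR-651-5p (0.92) and miR-30b-5p (0.92). Taken apart, miR-365a-3p was closest to miR-185-3p (0.90), miR-30a-3p and miR-582-5p, and miR-365b-3p to miR-181d-5p (0.91), miR-181b-5p and miR-652-3p. miR-193a-5p and miR-193b-5p, from different chromosomes, had r of 0.92 with each other, whereas miR-193b-5p and miR-193b-3p, from 1 hairpin, had r of -0.43.

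PD-L1 is the protein of CD274, whose 3'UTR was searched for the letters that pair with the members' seeds, as the 2692 bases that GENCODE gives after the stop codon of 1 CD274 transcript (on GRCh37). Positions are counted from the first base after the stop codon, and only the strand of the mRNA was searched. The extent of the bait within it was not analysed here. The search used bases 2 to 7 (6mer), bases 2 to 8 (7mer-m8), bases 2 to 7 followed by A (7mer-A1) and bases 2 to 8 followed by A (8mer). For miR-193a-3p and miR-193b-3p the 6mer is GCCAGT and the 7mer-m8 is GGCCAGT, and the 3'UTR held 0 of either. Among 4581 3'UTRs of at least this length, cut to their first 2692 bases, 47.7% held the former and 15.9% the latter. For the miR-365 3p sequence it held 1 6mer, GGCATT, at positions 1045 to 1050 (shown in capitals), which 50.4% of the windows also held, and neither GGGCATT (14.4%) nor GGCATTA (12.4%):
miR-365 6mer in the CD274 3'UTR: tgtgccaGGCATTgaatcta
For miR-193a-5p it held 1 7mer-A1, AGACCCA, at positions 1914 to 1920, which includes the 6mer AGACCC and was held by 17.4% of the windows. The 7mer-m8 AAGACCC (14.7%) was not held:
miR-193a-5p 7mer-A1 in the CD274 3'UTR: caaaaggAGACCCAtgggctc
For miR-193b-5p, AACCCC (43.0% of the windows) was not held. A match of letters describes the sequence and not binding.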

How the data were processed

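Small RNA of ES-2 cells was measured in 9 libraries, grouped and numbered by the sample titles. The deposited values are raw read counts at each mature miRNA locus of miRBase. The submitters' processing notes name cutadapt 1.18 (trimming), Bowtie2 2.2.6 (alignment), hg38 and featureCounts 1.6.3 (counting). How reads with several places were treated is not given in the sources used here. Loci of a name were summed, and each member has 1 locus. Replicates of a group differed beyond sampling noise. Of 2652 names, 408 passed edgeR's filterByExpr and held at least 99.68% of each library's counts. The tests used edgeR 4.0.16 in R 4.3.3, with TMM scaling, 1 model of 3 group means over all 9 libraries, glmQLFTest (two-sided) and Benjamini-Hochberg adjustment over the 408 at 0.05. The SE is the log2 fold change over the square root of F. The miR-365a/b-3p sum was tested in the same way with its 2 names replaced by their sum. Ratios within a library were compared by exact permutation tests (scipy 1.17.1), adjusted over 15 tests. p-values measure the spread between these samples, which may be technical. The edgeR procedure was tested on simulated data in which only the PD-L1 bait group had changes, a simpler setting than these data. The members and lists were chosen with earlier results of these data known. By rule, named miRNAs are the members, their sum, the miR-365 5p arms, any name that shares a seed (0 found), and the 3 closest patterns to each. Some miRNAs of the cell marker lists are named beside these. Alternatives included DESeq2 1.42.0.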

Additional observations from a re-analysis of the deposited data

How the results depend on the processing

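The calls of miR-193a-5p in all 3 comparisons, of miR-193b-5p in the comparisons that involve the MS2 control, and of miR-193b-3p and the miR-365a/b-3p sum in the MS2 control against the input kept their direction and their side of the threshold under every alternative run. Library totals gave 1 member lower than the input in each trapped group, in place of 2 with the PD-L1 bait and 3 in the MS2 control, and changed the sign against the input for the miR-365a/b-3p sum (0.202) and for miR-365b-3p (0.416). With no filter the sum over the MS2 control was 0.962 and no longer passed. There miR-365b-3p lost its call and miR-193b-3p passed (1.85), so the count of 1 was of another member. The members higher than the MS2 control numbered 2 with DESeq2, with the edgeR exact test (each adding miR-193b-3p) and with the 2 miR-365 names summed into 1 row that counts for both. Replicate numbers were taken from the titles. Deviations of same-numbered libraries correlated only weakly, from -0.179 to 0.129. For 0 of 9 libraries was the own number the best match in both other groups. The numbers thus gave no clear pairing, and a weak pairing is not excluded. With the replicate number as a block, 1 member was higher and 2 were lower than the MS2 control, and the sum stood at 0.955 there, so no call changed.

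Leaving out 1 library at a time gave 0 to 2 members higher and 2 lower than the MS2 control, 2 to 3 lower than the input with the PD-L1 bait, and 2 higher and 3 lower in the MS2 control. The 0 arose without input replicate 2, MS2 control replicate 1 or PD-L1 bait replicate 3, where miR-365b-3p lost its call. The sum ranged from 0.673 to 1.112 over the MS2 control and from -0.754 to -0.324 over the input. miR-365b-5p over the input, with at most 3 reads in any library of either group, ranged from -1.009 to 0.925, with -0.017 without input replicate 1 and the lowest value without PD-L1 bait replicate 2. Differences of within-library ratios that changed sign, none of them between groups that were apart, ranged from -0.238 to 2.284 (miR-193b-3p to miR-193a-3p, PD-L1 bait against MS2 control), from -0.357 to 0.265 (miR-193b-5p to miR-193a-5p, PD-L1 bait against input) and from -0.263 to 1.153 (miR-193b-5p to miR-193b-3p, PD-L1 bait against input). The causes were not tested. Depth limits the rarer counts, with 16 reads of miR-193b-3p in the MS2 control group and, with the PD-L1 bait, 40 of miR-193b-3p, 29 of miR-193a-5p and 26 of miR-193b-5p.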
